A study of Mus musculus with 26 samples.

Results

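Microglia, the resident macrophages of the brain, are kept in their identity by a small group of DNA-binding proteins, and the mRNA levels of 9 of these genes were followed through cortical development and after maternal immune activation (MIA). The genes were chosen by symbol, with earlier results of these data known: *Sall1*, *Sall3*, *Maf*, *Spi1*, *Irf8*, *Runx1*, *Mef2c*, *Bhlhe40* and *Bhlhe41*, out of 31053 genes counted. They were read in 18 single-cell RNA libraries of sorted microglia. A further 8 libraries of nuclei from whole cortex were not used here.

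All mice were wild-type C57Bl/6N, and the tissue was S1 (somatosensory) cortex with the meninges taken off. Pregnant dams were given poly(I:C), a double-stranded RNA that mimics a viral infection (the MIA groups), or saline by intraperitoneal injection at E12.5. Offspring cells were sorted on Cd11b, Cx3cr1 and Cd45 at E13.5, E15.5 or P14 (the sample labels give the embryonic stages as E13 and E15), and each embryonic library pooled the cortices of several embryos. There were 3 saline and 3 MIA libraries at E13.5, 3 and 3 at E15.5, and 4 and 2 at P14. The libraries held both sexes except P14 saline 3F (female) and 3M (male), which carry the same replicate number. An embryonic replicate is therefore a pool. The study's sample list gives littermate pairs for the P14 libraries of mixed sex and a single pup for each of the others, whereas its account of the P14 experiment counts as many mice as libraries. Nothing in the labels says that replicates of 1 group came from separate experiments. The study's own MIA tests in microglia had sex and sequencing batch as covariates. The labels do not give the batches, so no fit here includes them.

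PU.1, the product of *Spi1*, is the ETS factor that opens chromatin across the myeloid lineage, and IRF8 and RUNX1 act with it in macrophage and early blood cell development. SALL1 and its paralogue SALL3 are zinc finger proteins. SALL1 is known as the factor that sets microglia apart from most other macrophages, and its loss moves microglia towards an inflammatory state. MEF2C is a MADS box factor that also acts in neurons and that restrains the inflammatory response of microglia. c-MAF (*Maf*) is a bZIP factor of mature tissue macrophages, and BHLHE40 and BHLHE41 are basic helix-loop-helix repressors that bind E-boxes.

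After removal of doublets and of clusters of other cell types, 61060 of 67847 cells that passed the filter were summed within each library. The sums held 6004416 to 95929023 unique molecular identifiers (UMIs) per library over 267 to 5525 cells, and levels are given as CPM, a gene's UMIs over the total of its library and times 1000000. A UMI count is taken at the 3′ end of the transcript, so levels were compared for 1 gene between samples and not between genes. The sorted cells carried microglial markers at each stage: *P2ry12* averaged 887 ± 34.1 CPM (SD, n = 3) in E13.5 saline libraries, 1849 ± 333 (n = 3) at E15.5 and 5956 ± 131 (n = 4) at P14. The cells also differed in other ways between stages. Dividing clusters made up 23.4 to 35.8% of kept cells at E13.5, 6.07 to 26.6% at E15.5 and 0.996 to 6.14% at P14, *Ms4a7*-positive or border macrophage-like clusters 2.07 to 13.48%, 1.96 to 5.54% and 0%, and ribosomal protein genes took 17.2 to 20.8% of UMIs before birth and 9.28 to 9.87% at P14. The dividing shares leave out an unnamed embryonic cluster of 3123 kept cells led by DNA replication genes, among them *Mcm2*, *Mcm6* and *Cdc6*. Other unnamed embryonic clusters also had cell cycle genes among their 10 leading genes, such as those of 1376 cells (*Cdc6*) and 985 cells (*Ccnb2*). The 0% at P14 leaves out an unnamed cluster of 1429 kept P14 cells, whose 10 leading genes held 2 of the 10 border macrophage markers used here (*Mrc1* and *Dab2*) beside *Ccr1* and *Ccl24*, and which had 392 CPM of *Sall1*. *Malat1*, a nuclear RNA, had 6128 to 10238 CPM at E13.5, 8578 to 17763 at E15.5 and 26873 to 36840 at P14. Mitochondrial genes took 2.10 to 5.04% of UMIs before birth and 1.30 to 1.51% at P14. As alternatives, the comparisons of the 9 genes were repeated without the dividing clusters and without the macrophage-like clusters, with the unnamed clusters left in. The part of these differences in the results was otherwise not tested. In sums over cells, fewer cells of a type and less RNA per cell cannot be told apart.

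Cell barcodes were shared between some libraries far beyond the other pairs. A set of 4 libraries (E13.5 saline 1, E13.5 MIA 1, P14 saline 1 and P14 MIA 1) shared 66 to 133 barcodes per pair, and a set of 6 (E13.5 saline 2, E13.5 MIA 2, E15.5 saline 3, E15.5 MIA 3, P14 saline 3F and 3M) shared 32 to 258, against at most 21 (median 3) in the other 132 pairs. The copies with the lower UMI count were 1698 of the 61060 kept cells (2.78%), up to 16.2% in 1 library (E15.5 MIA 3), and were 738 of the 944 P14 cells in dividing clusters (78.2%). In the smallest libraries most or many kept cells carried a barcode also found elsewhere, 250 of 354 in E13.5 MIA 2 and 135 of 267 in E13.5 MIA 1, and only 4 and 1 of them were lower copies. In each pair within their sets, the shared barcodes had the higher median UMI count in these 2 libraries. The medians were 14202.5 in E13.5 MIA 2 against 4530 in P14 saline 3F, and 44366 in E13.5 MIA 1 against 1234 in P14 saline 1. To which library such a cell belonged was not tested. All comparisons were repeated without the lower copies, and no call on the 9 genes changed, but that repeat kept nearly all shared cells of these libraries. Without E13.5 MIA 2 as a whole, neither call made between E13.5 and E15.5 in MIA offspring was kept.

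For 4 genes that passed a test between stages, the 250 bases before the 5′-most RefSeq transcript start are shown (GRCm38.p6). From E15.5 to P14 these genes rose (*Sall1* and *Mef2c*) or had a fall called in 1 treatment (*Runx1* in saline and *Bhlhe41* in MIA offspring). Of the 9 genes, the windows of 5 were used here. They were searched on both strands, from 250 bases before to 50 after the start, for 7 motifs of the factors themselves: RUNX (TGTGGTT), E-box (CACGTG), PU.1 (GAGGAAGT), the ETS-IRF composite (GGAANNGAA), IRF (GAAANNGAA), MEF2 (CTATTTATA) and MAF (TGCTGAC). The motifs were searched separately, and 1 stretch of bases could match more than 1 of them. Capitals mark matches, and the strand is that of the gene.
*Sall1* (chr8:89044163-89044412, minus strand): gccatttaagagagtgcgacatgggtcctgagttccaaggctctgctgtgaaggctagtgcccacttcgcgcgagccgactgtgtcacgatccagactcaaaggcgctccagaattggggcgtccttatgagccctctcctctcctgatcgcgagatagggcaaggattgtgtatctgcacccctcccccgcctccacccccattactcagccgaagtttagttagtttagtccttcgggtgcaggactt
*Mef2c* (chr13:83503784-83504033, plus strand): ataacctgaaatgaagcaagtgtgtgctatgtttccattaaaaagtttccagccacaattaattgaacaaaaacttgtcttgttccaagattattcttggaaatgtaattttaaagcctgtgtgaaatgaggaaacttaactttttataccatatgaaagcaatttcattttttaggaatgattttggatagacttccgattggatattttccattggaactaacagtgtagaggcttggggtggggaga
*Runx1* (chr16:92826075-92826324, minus strand): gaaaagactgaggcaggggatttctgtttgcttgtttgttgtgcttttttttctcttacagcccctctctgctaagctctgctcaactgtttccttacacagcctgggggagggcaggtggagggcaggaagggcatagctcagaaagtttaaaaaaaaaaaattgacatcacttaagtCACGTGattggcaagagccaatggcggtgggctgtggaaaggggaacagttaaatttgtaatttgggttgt
*Bhlhe41* (chr6:145865421-145865670, minus strand): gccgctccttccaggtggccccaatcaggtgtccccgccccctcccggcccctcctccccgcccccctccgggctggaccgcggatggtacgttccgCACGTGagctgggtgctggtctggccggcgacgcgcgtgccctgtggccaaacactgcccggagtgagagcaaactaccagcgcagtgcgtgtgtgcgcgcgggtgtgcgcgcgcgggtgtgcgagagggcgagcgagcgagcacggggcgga
The *Bhlhe41* window held 1 E-box, 153 bases before the start, and the *Runx1* window held 1 E-box 71 bases before the start. The *Runx1* window also held 2 RUNX matches on the opposite strand (AACCACA), 27 and 35 bases after the start and therefore outside the printed stretch. No motif was matched in the *Sall1*, *Mef2c* or *Irf8* windows. Among all 32851 promoter windows of the same length, 8.56% held IRF, 8.24% the ETS-IRF composite, 7.15% the E-box, 5.27% RUNX, 4.67% MAF, 3.2% PU.1 and 0.429% MEF2.

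From E15.5 to P14 in saline offspring, *Sall1*, *Sall3*, *Mef2c* and *Irf8* rose and *Runx1* fell, by edgeR's quasi-likelihood test with Benjamini-Hochberg adjustment over all genes (threshold 0.05). These are 5 of the 9 genes, where 49.3% of the 14178 genes tested were called (24.3% higher and 25% lower), so the share called among the 9 was near that of the transcriptome. The median log2 fold change of the 9 was 0.28, against 0.026 over all genes.

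*Sall1* (chr8:89027235-89044162, minus strand, protein coding) had 127, 127 and 135 CPM in the E13.5 saline libraries, and 122, 159 and 108 in the E13.5 MIA libraries. At E15.5 it had 110, 174 and 224 CPM after saline and 102, 173 and 240 after MIA. At P14 the saline libraries held 350.0, 388, 366 and 391 CPM and the MIA libraries 349 and 381. Each P14 library was above each embryonic library, and the embryonic stages overlapped. The fold change from E15.5 to P14 was 1.89 in saline (log2 0.92 ± 0.22 SE, edgeR adjusted p = 0.00224) and 1.84 in MIA offspring (log2 0.88 ± 0.25, edgeR adjusted p = 0.0110). The value in saline passed the threshold when any 1 of the 18 libraries was left out (log2 0.70 to 1.14). That in MIA passed when any 1 library outside the P14 MIA group was left out. Without P14 MIA 2, a fit that left 1 library in that group, it was 0.84. The MIA value did not pass with both groups alone in the edgeR fit (0.86, adjusted p = 0.0818).

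*Sall3*, on chromosome 18, followed *Sall1* at lower counts. It had 37.7, 39.4 and 36.3 CPM in the E13.5 saline libraries, 27.3, 51.1 and 61.8 at E15.5 and 95.9, 91.6, 98.0 and 95.6 at P14. After MIA it had 33.7, 38.1 and 33.7 CPM at E13.5, 35.5, 46.7 and 66.7 at E15.5 and 90.7 and 82.9 at P14. The P14 libraries did not overlap those of either embryonic stage. In saline offspring it rose 1.75-fold from E15.5 to P14 (log2 0.81 ± 0.20 SE, edgeR adjusted p = 0.00303, called in each of 18 fits without 1 library). In MIA offspring the log2 fold change was 0.60 ± 0.23 (edgeR adjusted p = 0.0517). It passed in 8 of 14 other settings. Among these were library totals as scaling (0.81, edgeR adjusted p = 0.0158) and the replicate number as a block (0.70, edgeR adjusted p = 0.0210, where 39.5% of all genes were called). That block joins same-numbered libraries across stages, which were not taken as pairs.

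*Mef2c* (chr13:83504034-83667080, plus strand) had 709, 594 and 606 CPM in the E13.5 saline libraries, 582, 823 and 895 at E15.5 and 1382, 1358, 1389 and 1417 at P14. In the MIA libraries it had 669, 656 and 549 CPM at E13.5, 687, 836 and 959 at E15.5 and 1356 and 1317 at P14. The lowest P14 library was above the highest embryonic one, and the spread among P14 libraries was the narrower. From E15.5 to P14 the gene rose 1.55-fold in saline (log2 0.63 ± 0.13 SE, edgeR adjusted p = 0.000687) and 1.39-fold in MIA offspring (log2 0.47 ± 0.15, edgeR adjusted p = 0.0196). Without P14 MIA 1 the MIA value was 0.44 and without P14 MIA 2 it was 0.52, fits that left 1 library in that group. From E13.5 to E15.5 *Mef2c* rose in MIA offspring (log2 0.46 ± 0.14, edgeR adjusted p = 0.0200), while in saline offspring the log2 fold change was 0.29 ± 0.13 (edgeR adjusted p = 0.134). With library totals the MIA value over this interval was 0.41 (edgeR adjusted p = 0.0534). With both groups alone in the fit neither MIA value passed (0.45 over both intervals, edgeR adjusted p = 0.108 from E13.5 to E15.5 and 0.0982 from E15.5 to P14).

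**Figure D1:**
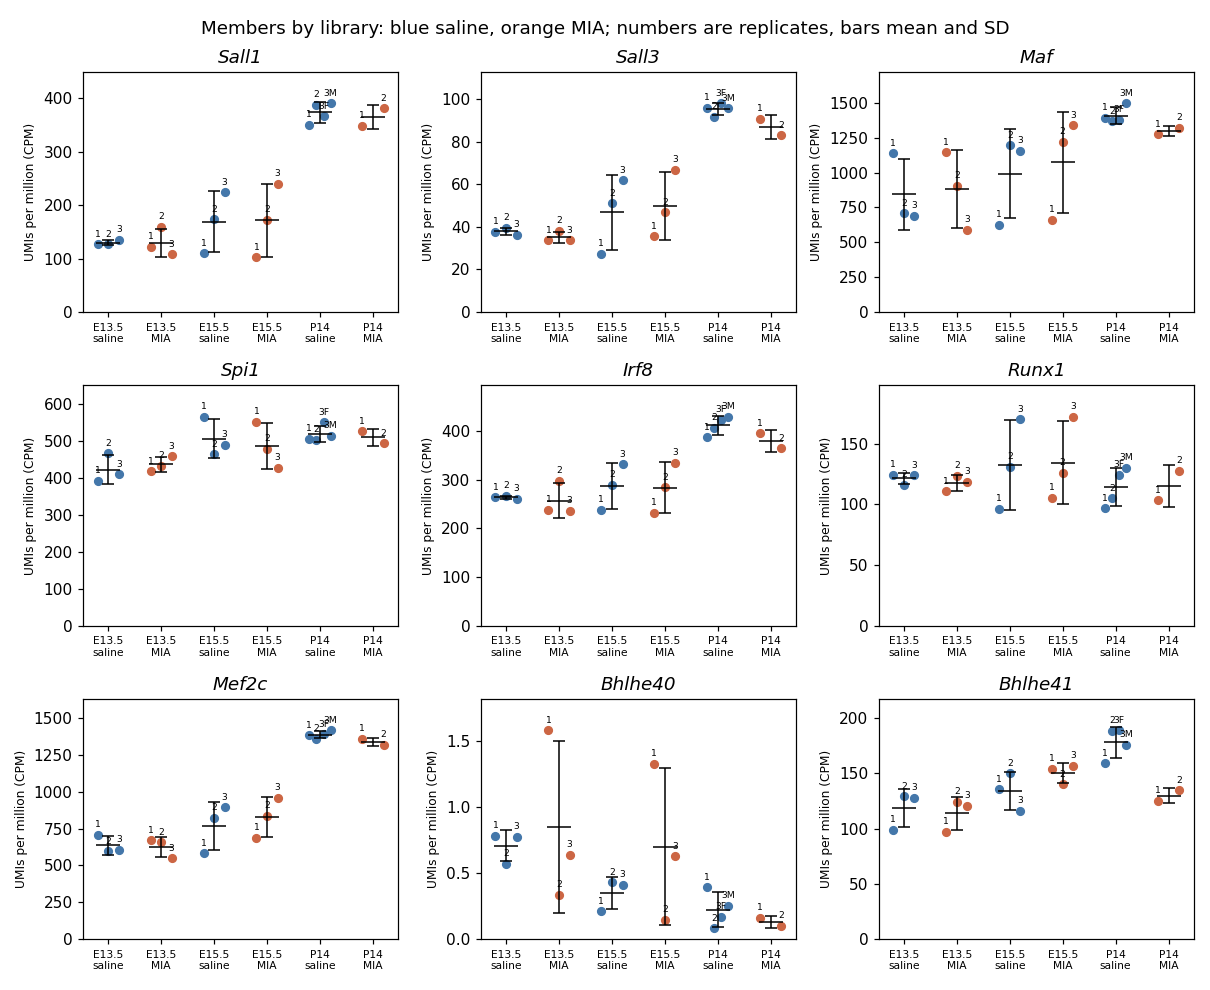
Level of each of the 9 genes in the 18 libraries, in CPM (linear axis from 0), by stage and treatment. Each number is a replicate, blue is saline, orange is MIA, and bars are the mean and SD of the group. The P14 libraries of *Sall1*, *Sall3* and *Mef2c* sit above all embryonic ones, and the E15.5 libraries numbered 1 sit below those numbered 2 and 3 for *Sall1*, *Sall3*, *Maf*, *Irf8*, *Runx1* and *Mef2c*.

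*Irf8* (chr8:120736358-120756694, plus strand), the partner of PU.1, had 263, 267 and 261 CPM in E13.5 saline libraries, 238, 290 and 332 at E15.5 and 387, 407, 424 and 430 at P14. After MIA it had 237, 298 and 236 CPM at E13.5, 231, 284 and 335 at E15.5 and 395 and 364 at P14. It rose 1.23-fold from E15.5 to P14 in saline offspring (log2 0.30 ± 0.12 SE, edgeR adjusted p = 0.0435). The groups did not overlap, yet this call was near the threshold and passed in 8 of 18 fits without 1 library (log2 0.19 to 0.39). By edgeR it was lost with 3F and 3M summed (0.29, adjusted p = 0.0796), with both groups alone (0.27, 0.0821) and with no low-count filter (0.28, 0.108). In MIA offspring the log2 fold change was 0.21 ± 0.14 (edgeR adjusted p = 0.255), and 0.42 (adjusted p = 0.0416) with library totals as scaling.

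*Spi1* (chr2:91082390-91115756, plus strand) had the narrowest range of levels, as the ratio of the highest to the lowest library, among the genes above 1 CPM. Its group means were 423 and 436 CPM at E13.5 (saline and MIA), 507 and 486 at E15.5 and 519 and 510 at P14, and the 18 libraries ran from 392 to 566. Its log2 fold change from E15.5 to P14 was −0.20 ± 0.13 in saline and −0.16 ± 0.15 in MIA offspring (edgeR adjusted p = 0.208 and 0.429). From E13.5 to E15.5 it was 0.28 ± 0.14 in saline offspring (edgeR adjusted p = 0.142). None of these passed the threshold, and with library totals as scaling the values from E15.5 to P14 changed sign, to 0.034 in saline and 0.069 in MIA offspring. The rise from E13.5 to E15.5 in saline was called by edgeR in 2 of 13 other settings. These were without dividing clusters (0.40, adjusted p = 0.0421) and with libraries split by sex (0.31, 0.00885), which counts 2 sums of 1 library as separate samples.

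*Runx1* (chr16:92601466-92826149, minus strand) had 124, 116 and 124 CPM in E13.5 saline libraries, 96.3, 131 and 170.1 at E15.5 and 96.7, 105, 124 and 129.9 at P14. After MIA it had 111, 123 and 119 CPM at E13.5, 105, 126 and 172 at E15.5 and 103 and 127 at P14. The libraries of the 3 stages overlapped. The fitted change from E15.5 to P14 in saline offspring was a fall (log2 −0.44 ± 0.16 SE, edgeR adjusted p = 0.0282), and it was −0.44 ± 0.19 in MIA offspring (edgeR adjusted p = 0.0864). This call was made in 11 of 14 other settings. It was lost with all cells (−0.37, edgeR adjusted p = 0.115), without dividing clusters (−0.40, edgeR adjusted p = 0.0589) and with another scaling of the libraries. With library totals in place of the trimmed mean of M values (TMM) factors, the median change of all genes moved up by 0.23 and *Runx1* stood at −0.22 (adjusted p = 0.314). It was called in 12 of 18 fits without 1 library (−0.62 to −0.26).

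*Maf* (chr8:115682942-115707794, minus strand) varied widely between libraries of the same embryonic group. It had 1138, 708 and 689 CPM in E13.5 saline libraries, 626, 1195 and 1158 at E15.5 and 1392, 1368, 1378 and 1498 at P14. After MIA the values were 1145, 906 and 591 CPM at E13.5, 661, 1220 and 1340 at E15.5 and 1274 and 1323 at P14. All P14 saline libraries were above all embryonic saline libraries, but the log2 fold change from E15.5 was 0.28 ± 0.25 (edgeR adjusted p = 0.371) and did not pass.

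*Bhlhe41* (chr6:145858243-145865558, minus strand) did not follow the same course in the saline and the MIA libraries, though this difference passed the threshold in neither interval. It had 98.6, 129 and 128 CPM in E13.5 saline libraries, 136, 150.1 and 116 at E15.5 and 159, 188, 189 and 176 at P14. After MIA it had 96.8, 124 and 121 CPM at E13.5, 154, 140.1 and 157 at E15.5 and 125 and 135 at P14. The P14 saline libraries were above the E15.5 saline libraries, and the P14 MIA libraries were below the E15.5 MIA libraries. In MIA offspring *Bhlhe41* rose from E13.5 to E15.5 (log2 0.45 ± 0.14 SE, edgeR adjusted p = 0.0267) and fell from E15.5 to P14 (−0.44 ± 0.16, edgeR adjusted p = 0.0408). The rise was not called by edgeR with all cells (0.29, adjusted p = 0.124), with both groups alone in the fit (0.45, adjusted p = 0.0892) or without E13.5 MIA 1, E13.5 MIA 2 or E15.5 MIA 1. The fall was called in 10 of 18 fits without 1 library (−0.47 to −0.35) and not with library totals (−0.21, edgeR adjusted p = 0.273), with all cells (−0.27, 0.191), with no low-count filter (−0.43, 0.0773), with 3F and 3M summed (−0.43, 0.0530) or with both groups alone (−0.46, 0.0813). In saline offspring the change from E15.5 to P14 was 0.17 ± 0.13 (edgeR adjusted p = 0.289) with TMM and 0.41 (adjusted p = 0.0117) with library totals.

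*Bhlhe40* (chr6:108660629-108666925, plus strand), the paralogue of *Bhlhe41*, was near the limit of detection. The 18 libraries held 2 to 61 UMIs of it, or 0.0818 to 1.58 CPM. The UMIs were 15, 14 and 16 in the E15.5 saline libraries, 59, 5 and 10 in the E15.5 MIA libraries, 8, 2, 4 and 7 in the P14 saline libraries and 4 and 3 in the P14 MIA libraries. The largest of these E15.5 and P14 values was that of E15.5 MIA 1. The edgeR call of a fall from E15.5 to P14 in MIA offspring (log2 −2.71 ± 0.87, adjusted p = 0.0213) was lost without that library (−1.56, adjusted p = 0.174) and with both groups alone in the fit (−2.72, 0.103). Without P14 MIA 1 the value was −3.07 and without P14 MIA 2 it was −2.37, fits that left 1 library in that group. In saline offspring the value was −0.85 ± 0.66 (edgeR adjusted p = 0.305). Too few molecules were counted at P14 for the gene to be tested there between MIA and saline.

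In MIA offspring, 4 of the 9 genes were called between E15.5 and P14, *Sall1* and *Mef2c* higher and *Bhlhe40* and *Bhlhe41* lower, where 37.2% of all genes were called (18.2% higher and 19% lower). Between E13.5 and E15.5, the earlier interval, 0 of the 9 genes passed in saline offspring by edgeR, where 23.6% of all genes did (13.2% higher and 10.4% lower). At an unadjusted p under 0.05 there was 1 (*Mef2c*), where 5282 of the 14178 genes tested were under it. DESeq2 called 0 of the 9, where it called 3692 of the 14178. In MIA offspring, 2 of the 9 (*Mef2c* and *Bhlhe41*) rose over this interval, where 27.5% of all genes were called (13.9% higher and 13.6% lower). The E15.5 libraries enter both intervals. Leaving out a single library changed calls in both directions here. Of the 2 calls in MIA offspring, both were lost without E13.5 MIA 2 (*Mef2c* 0.45, edgeR adjusted p = 0.0510, and *Bhlhe41* 0.47, 0.0553). That of *Mef2c* was also lost without E13.5 MIA 3 (0.40, 0.0707) or E15.5 MIA 3 (0.37, 0.0686), and that of *Bhlhe41* without E13.5 MIA 1 (0.35, 0.118) or E15.5 MIA 1 (0.42, 0.0554). Calls were gained in other fits. Without E15.5 saline 1, *Sall1* (log2 0.61, edgeR adjusted p = 0.0367), *Sall3* (0.58, 0.0109) and *Mef2c* (0.43, 0.0112) passed in saline, and without E15.5 MIA 1, *Sall1* (0.72, 0.0164) and *Sall3* (0.73, 0.0230) passed in MIA offspring. *Sall3* in MIA offspring also passed without E15.5 saline 1 (0.53, 0.0113). Stage comparisons in saline and MIA offspring use separate libraries. Whether a gene's stage change differed between them is the same contrast as whether its MIA response differed between stages, and 0 of the 9 genes passed that test in either interval by edgeR and by DESeq2 (percent of all genes called, 0).

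Counted as groups that do not overlap, 6 genes had all P14 saline libraries above all E15.5 saline libraries (*Sall1*, *Sall3*, *Maf*, *Irf8*, *Mef2c* and *Bhlhe41*) and 0 had them below. Among the 11454 genes over 1 CPM, 59.9% did not overlap in either direction and 41.2% were higher at P14. In MIA offspring 4 genes were higher at P14 without overlap (*Sall1*, *Sall3*, *Irf8* and *Mef2c*) and *Bhlhe41* was lower, against 64.9% of genes (45.3% higher and 19.6% lower). These counts rest on CPM, which are scaled by library totals and not by TMM.

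**Figure D2:**
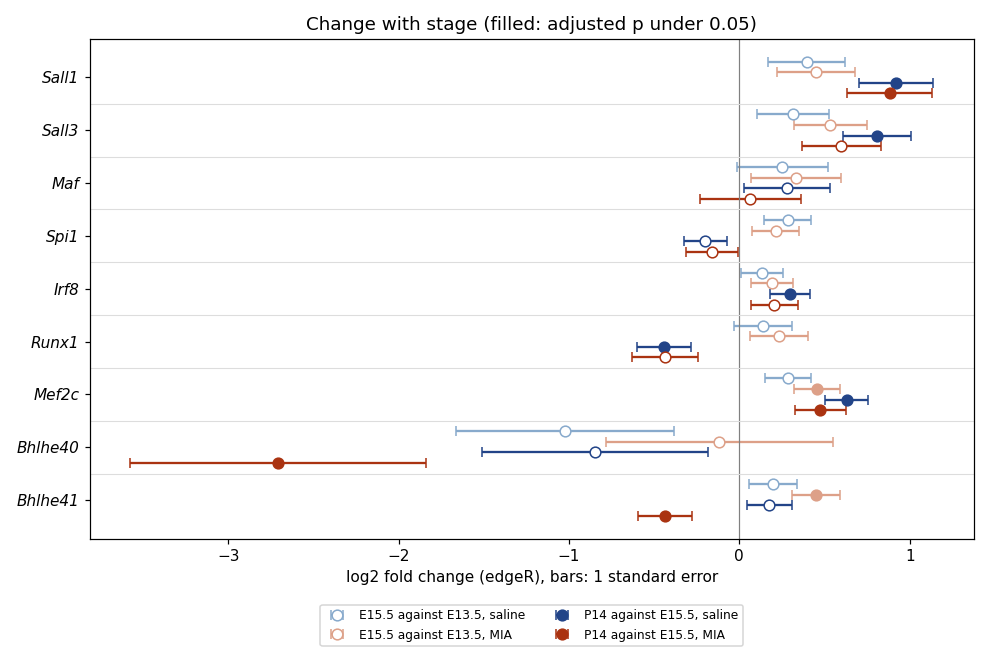
Log2 fold change between stages for the 9 genes in saline and in MIA offspring, from edgeR, with 1 standard error as the bar. Filled points passed the adjusted threshold and open points did not. The E15.5 to P14 values of *Sall1* (0.92 and 0.88), *Sall3* (0.81 and 0.60) and *Mef2c* (0.63 and 0.47) lie to the right of 0 in both treatments, and *Bhlhe40* has the widest bars.

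MIA was compared with saline within each stage to ask whether maternal inflammation moved these genes at 1 day, at 3 days or long after the injection. By edgeR, 0 of the 9 genes passed at E13.5 and at E15.5, and 0 of 8 tested at P14, and the percent of all genes called was 0 at each stage. At an unadjusted p under 0.05 the members were 0, 0 and 1, and DESeq2 called 0, 0 and 1. Over all genes edgeR called 0 of 12400, 0 of 13169 and 0 of 12931, with 123, 39 and 479 at an unadjusted p under 0.05, and DESeq2 called 2, 0 and 1. When edgeR was fitted with same-numbered libraries as blocks it called 5, 0 and 0 genes, none of them among the 9, with 326, 174 and 845 at an unadjusted p under 0.05. Of the 9, 0, 0 and 2 were under it in that fit, *Bhlhe41* and *Runx1* at P14, where *Runx1* stood at 0.18 (edgeR adjusted p = 0.733) against 0.046 without blocks.

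The 1 gene was *Bhlhe41* at P14. Its 2 MIA libraries (125 and 135 CPM) lay below all 4 saline libraries (159, 188, 189 and 176 CPM), at means of 130 ± 6.74 (SD, n = 2) and 178 ± 14.1 (n = 4). The fold was 0.743 (log2 −0.43 ± 0.083 SE), with an unadjusted p = 0.000777 and an adjusted p = 0.934 by edgeR, and DESeq2 gave an adjusted p = 0.0191. Since the groups did not overlap, any pairing of them goes down. The same-numbered pairs did so by 0.34 and 0.48 on the log2 scale. Among P14 clusters named microglia, *Bhlhe41* had 128 CPM in that with 60.5% of its cells from P14 MIA 1. It had 125.5 in that with 65.4% from P14 MIA 2, and 178 to 183 in the others. The part of single libraries in this difference was not tested. Fits without 1 library gave −0.47 to −0.39, none past the threshold by edgeR (adjusted p 0.432 to 1.00). The other settings gave −0.46 to −0.40, with adjusted p from 0.0191 to 1.00. At E15.5 the MIA value was on the other side of saline (0.18 ± 0.17), and the difference between both responses was −0.61 ± 0.21 (unadjusted p = 0.00908, edgeR adjusted p = 1.00), which did not pass. Among the other genes at P14, *Sall3*, *Maf* and *Mef2c* also had both MIA libraries below all saline libraries, at log2 −0.11 ± 0.080, −0.093 ± 0.073 and −0.028 ± 0.072. That makes 4 genes without overlap, all lower, where 10.7% of genes did not overlap and 5.65% were lower.

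At E13.5, the day after the injection, the log2 difference of MIA from saline ran from −0.12 (*Sall3*) to 0.16 (*Bhlhe40*). At E15.5 it ran from −0.042 (*Spi1*) to 0.18 (*Bhlhe41*) among the 8 genes above 1 CPM. Their standard errors at E15.5 were 0.17 to 0.33, and 0.083 to 0.12 with the replicate number as a block, a fit in which none of them passed either. *Bhlhe40* stood at 1.09 ± 0.74 at E15.5, where E15.5 MIA 1 held 59 of the UMIs. Same-numbered saline and MIA libraries were close for *Sall1* at E15.5, with 110 and 102 CPM in the pair numbered 1, 174 and 173 in the pair numbered 2 and 224 and 240 in the pair numbered 3. They were farther apart for *Sall1* at E13.5, with 127 and 122, 127 and 159, and 135 and 108 CPM, and for *Bhlhe41* in the third pair at E15.5, with 116 and 157 CPM.

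**Figure D3:**
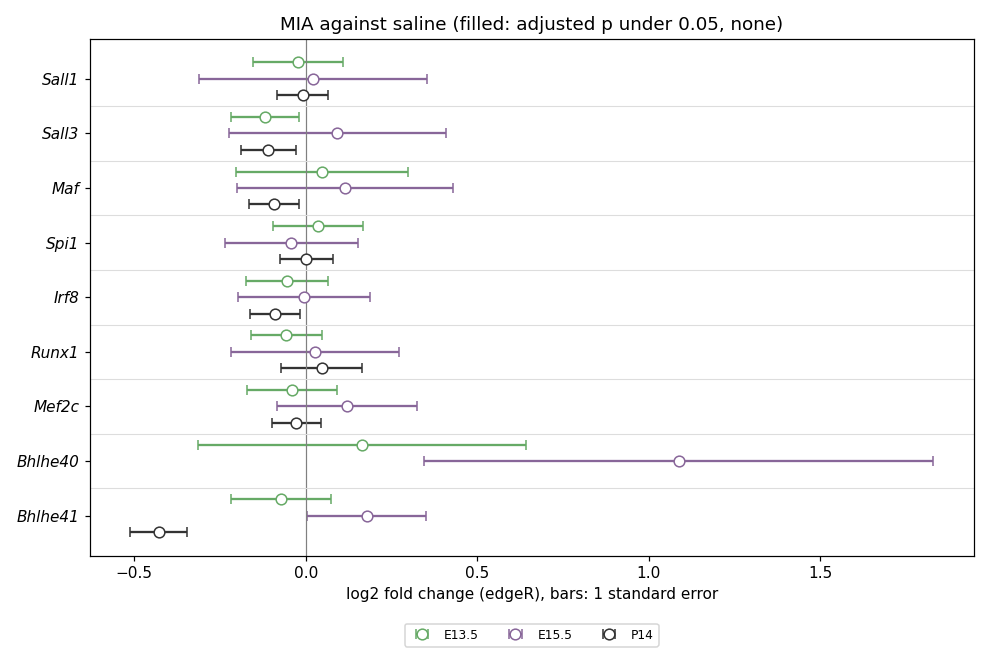
Log2 fold change of MIA against saline at E13.5, E15.5 and P14 for the 9 genes, from edgeR, with 1 standard error as the bar. No point is filled, since none passed the adjusted threshold. *Bhlhe41* at P14 (−0.43) is the point farthest from 0 for its bar, and *Bhlhe40* has no P14 value.

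Taken over all 18 libraries, several of the genes varied together between libraries of 1 group, most widely at E15.5. After each group's mean was subtracted, 47.2% of the squared deviations of log2(CPM + 1) over 18 libraries and 5951 genes lay on 1 axis, and 16.4% on the next. The ends of the axis were E15.5 saline 1 (−0.47) and E15.5 MIA 1 (−0.53) on one side and E15.5 saline 3 (0.33) and E15.5 MIA 3 (0.39) on the other. E13.5 libraries lay from −0.27 (MIA 3) to 0.22 (MIA 2) and P14 libraries from −0.092 to 0.096. The genes did not move together in each group. From P14 MIA 1 to P14 MIA 2, *Sall1* went from 349 to 381 CPM and *Irf8* from 395 to 364. Along it, Pearson's r over the 18 libraries was 0.94 for *Sall1* and *Mef2c*, 0.90 for *Maf* and *Irf8*, 0.88 for *Sall3* and 0.81 for *Runx1*, but −0.78 for *Spi1* and −0.22 for *Bhlhe41*. These are descriptions over libraries that share groups, depth and composition, and no p is given.

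Between pairs of the 9 genes, the closest were *Sall1* and *Irf8* (r = 0.94), *Maf* and *Mef2c* (0.93) and *Sall1* and *Sall3* (0.91), and the most opposed were *Spi1* with *Maf* (−0.83) and with *Mef2c* (−0.83). The likeness was shared by many genes: *Sall1* had r above 0.8 with 1337 of the 5951 genes (22.5%). Those genes had a median exonic length of 8225 bases, against 2399 for the 649 genes with r below −0.8 and 4540 for all, while *Bhlhe41* had r above 0.8 with 7 genes (0.118%). *Spi1*, at 2695 exonic bases the shortest of the 9, had r above 0.8 with 387 genes of median length 2684. It had r below −0.8 with 249 genes of median length 7509. The part of length in these r was not tested. The 3 most similar genes were *Tnpo1*, *Prkd3* and *Hipk1* for *Sall1* (r = 0.99 each), *Slf2*, *Plxdc2* and *Jmjd1c* for *Sall3* (0.98, 0.96 and 0.96), and *Fcho2*, *Pcyox1* and *Arid1b* for *Maf* (0.98, 0.97 and 0.97). For *Mef2c* they were *Cyth3*, *4931406C07Rik* and *Atxn2* (0.98, 0.98 and 0.97), for *Irf8* *Ankrd44*, *Prex1* and *Hipk3* (0.96 each), and for *Runx1* *Tet2*, *Nipa2* and *Lcorl* (0.97, 0.97 and 0.96). For *Spi1* they were *Rgs19*, *Mbd3* and *Rnf187* (0.96, 0.95 and 0.94), and for *Bhlhe41* *Bcl2a1b*, *Eno1* and *Alkbh5* (0.88, 0.84 and 0.84).

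Measures of the libraries moved with the same genes. Within groups, the mitochondrial share of UMIs had r = 0.88 with *Maf*, 0.77 with *Mef2c*, 0.67 with *Sall1* and −0.67 with *Spi1*. The level of *Malat1*, a nuclear RNA, had r = 0.84 with *Mef2c*, 0.77 with *Maf* and −0.67 with *Spi1*. The share of other cells removed had r = −0.65 with *Sall1*, and it was highest in E15.5 MIA 1 (25.2%). The share of dividing cells had r = 0.45 with *Spi1* and between −0.37 and 0.0016 with the other genes. The part of these measures in the level of each gene was not tested.

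**Figure D4:**
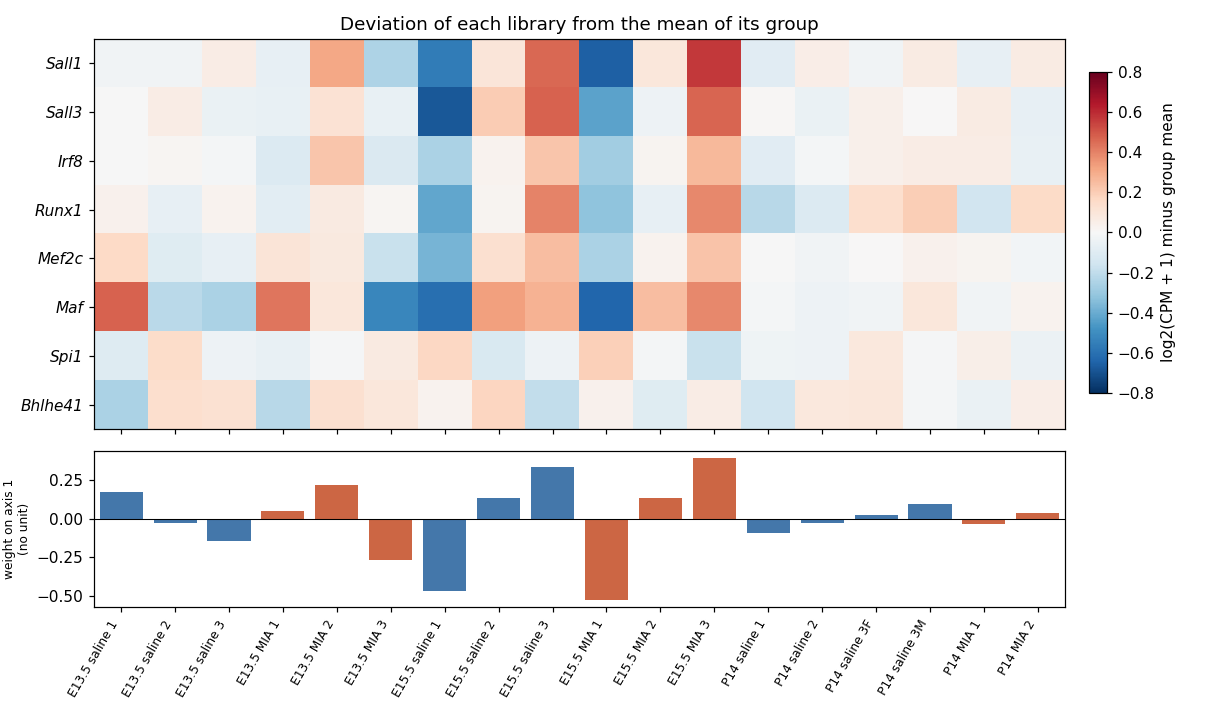
Top, deviation of each library from its group mean (log2(CPM + 1), colour) for 8 of the genes. Bottom, weight of each library on the axis that held 47.2% of the squared deviations (no unit, blue saline and orange MIA). *Sall1*, *Sall3*, *Maf*, *Irf8*, *Runx1* and *Mef2c* are low together in E15.5 saline 1 and E15.5 MIA 1, the libraries with weights of −0.47 and −0.53, where *Spi1* is high.

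Within libraries, cells were grouped into clusters built without the 9 genes, and the clusters were named from marker genes only. Levels by class below leave out the copies of shared barcodes and are descriptions, since the classes come from the same cells. *Sall1* differed widely between classes. In *Ms4a7*-positive or border macrophage-like cells it had 31.6 ± 7.19 CPM at E13.5 (SD, n = 6 libraries) and 53.8 ± 28.8 at E15.5 (n = 5), against 191 ± 21.3 (n = 4) and 205 ± 59.5 (n = 6) in microglia-like cells. *Sall3* had 14.5 ± 7.67 and 12.5 ± 1.48 CPM in the macrophage-like cells. *Maf* did not show this gap over the pooled class: it had 1331 ± 481 and 1265 ± 368 CPM in macrophage-like and 1141 ± 201 and 1234 ± 346 in microglia-like cells. *Spi1* had 424 ± 18.1 and 483 ± 44.0 against 426 ± 103 and 497 ± 65.0 CPM. The clusters of the macrophage-like class differed in *Maf*, with copies left in. A cluster of 1223 cells had 1041 CPM of *Maf* and 41.9 of *Sall1*. A cluster of 183 cells, led by *Pf4*, *Lyve1* and *F13a1*, had 2104 and 8.83. Embryonic clusters named microglia had 786 to 1561 CPM of *Maf*. The E13.5 microglia-like class was small (162 cells), since 7244 E13.5 cells lay in clusters that were left unnamed, in which *Sall1* had 142 ± 17.7 CPM.

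At P14 *Sall1* had 392 ± 26.0 CPM in microglia-like cells, 377 ± 19.3 in interferon-responsive microglia-like cells and 266 ± 7.87 in *Ccl3* and *Ccl4*-high microglia-like cells (n = 6 libraries each). Dividing microglia-like cells had 138 ± 20.1, 168 ± 58.3 and 248 ± 61.1 CPM of *Sall1* at E13.5, E15.5 and P14. With the copies left in, the P14 value was 169, and *Mef2c* there was 820 CPM with them and 1055 ± 238 without. *Irf8*, a gene of the interferon regulatory factor family, had 447 ± 40.3 CPM in the interferon-responsive class at P14 against 399 ± 27.2 in microglia-like cells, and 381 ± 71.9 against 298 ± 41.3 at E15.5 (n = 5 and 6). *Bhlhe40* was highest among kept classes in *Spp1*-high microglia-like cells, at 4.98 ± 1.26 CPM at E13.5 (n = 2) and 6.57 ± 4.70 at E15.5 (n = 6), where microglia-like cells had 1.67 ± 2.14 and 0.0464 ± 0.0437. E15.5 MIA 1, the library with 59 *Bhlhe40* UMIs, held 55.0% of the 764 cells of the embryonic *Spp1*-high cluster.

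*Mef2c* is also a gene of neurons. Neuron-like cells, which were left out, had 377 ± 166, 827 ± 264 and 1641 ± 344 CPM of it at E13.5, E15.5 and P14. The same cells had 71.6 ± 55.1, 61.3 ± 36.8 and 188 ± 121 CPM of *Spi1*, a gene not known in neurons.

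**Figure D5:**
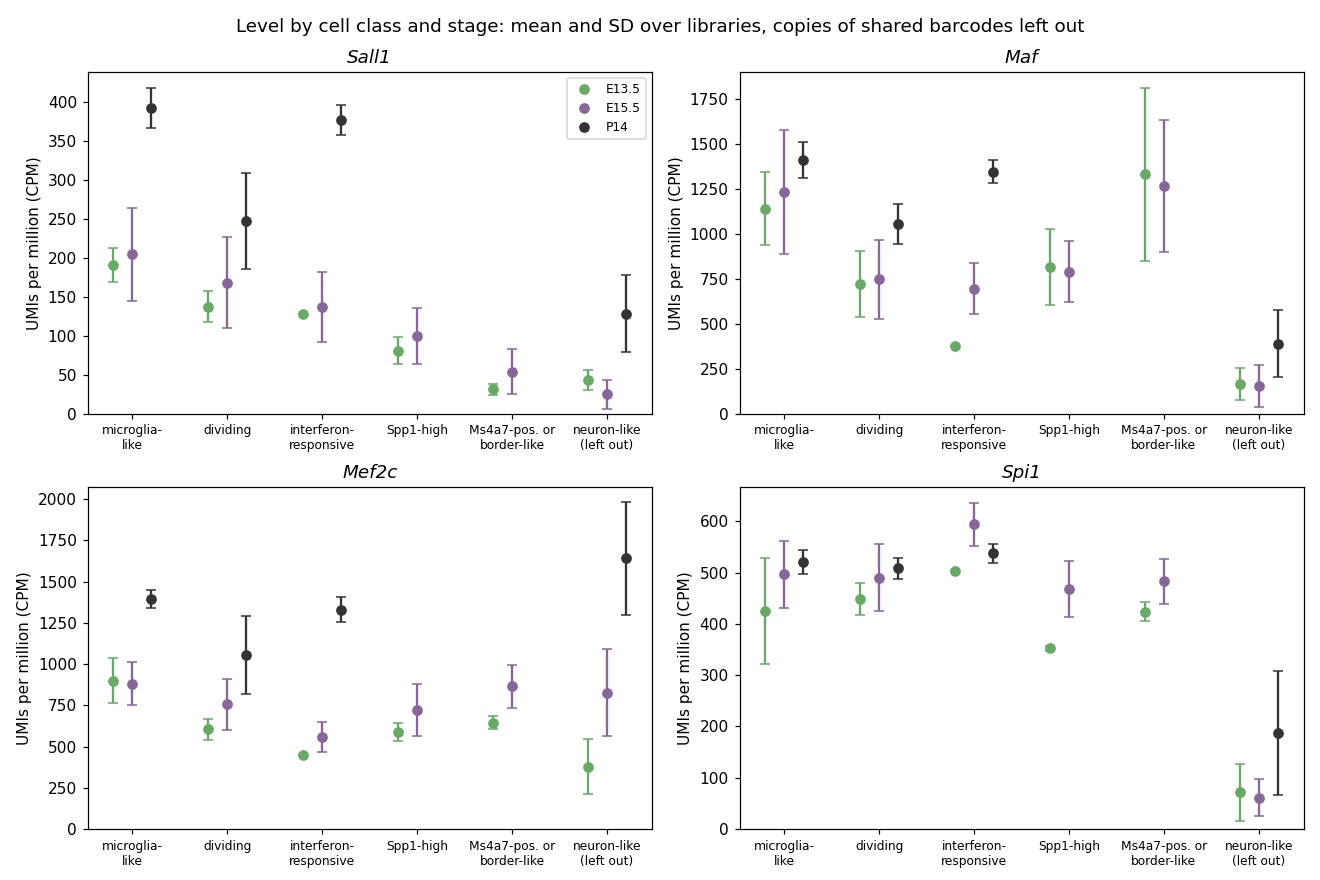
Level of *Sall1*, *Maf*, *Mef2c* and *Spi1* by cell class and stage (CPM, linear axes from 0; green E13.5, purple E15.5, black P14), as mean and SD over libraries with at least 20 cells of the class, with copies of shared barcodes left out. A point with no bar rests on 1 library. *Sall1* is lowest among kept classes in *Ms4a7*-positive or border macrophage-like cells (31.6 and 53.8 CPM), while *Mef2c* in neuron-like cells reaches 1641 CPM at P14.

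The share of cells with at least 1 UMI was compared after each cell was thinned to 2000 UMIs, since P14 cells were shallower (median 3655 to 6800 UMIs per library, against 8108.5 to 26242 at E13.5). Shallower cells were left out, 2599 of 12070 at E13.5, 1530 of 20788 at E15.5 and 1672 of 28202 at P14. The median share over libraries for *Sall1* was then 19.2, 26.7 and 50.7% at the 3 stages, against 6.49, 4.23 and 9.30% in neuron-like cells. Without thinning it was 57.5, 66.6 and 79.6%. *Sall3* was found in 6.26, 8.28 and 16.6% of thinned cells (neuron-like 1.90, 2.48 and 2.33%), and *Irf8* in 36.6, 41.7 and 53.3% (5.63, 4.86 and 13.95%). *Mef2c* was found in 63.0, 75.0 and 91.8%, but in 29.98, 55.8 and 77.3% of neuron-like cells. *Runx1* had shares of 19.5, 20.4 and 19.6%. *Bhlhe40*, at 0.140, 0.120 and 0.0460%, was below its share in neuron-like cells at E13.5 and E15.5 (1.24 and 0.632%), and at P14 the neuron-like median was 0%. Neuron-like clusters had up to 13.2 CPM of *Bhlhe40*, and 1 embryonic cluster of them had 40.3 CPM of *Sall3* and 32.4 of *Sall1*. Their share is therefore no background for *Bhlhe40* or *Sall3*. How much of their *Sall1* is background was not tested. Neuron-like cells were shallower, with medians of 1627 to 3198 UMIs per library.

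The wider sets of transcription factors moved in both directions with stage. Of 17 tested family members and partners of the 9 genes, 9 were higher and 3 lower at P14 than at E15.5 in saline offspring (median log2 0.58). The higher ones included *Irf4* (2.99) and *Sall2* (1.45), and the lower ones were *Runx3* (−2.64), *Irf7* (−1.89) and *Maff* (−1.41). *Runx3*, a relative of *Runx1*, averaged 7.17, 1.70 and 0.320 CPM in saline libraries at E13.5, E15.5 and P14. Of 30 other macrophage transcription factors, 11 were higher and 7 lower (median 0.11), with *Klf4* (1.502) and *Smad3* (1.39) at one end and *Klf2* (−3.26), *Tfec* (−2.55) and *Pparg* (−1.62) at the other. Of 6 factors of blood progenitors, *Lyl1* was higher (0.64) and *Myb* lower (−1.92), and the median was 0.26. All these counts stand beside 24.3% of all genes higher and 25% lower, and the medians beside 0.026 for all genes.

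Markers of microglia and of border macrophages were read beside the factors. Of 12 homeostatic genes tested, 11 were higher at P14 than at E15.5 in saline offspring and 0 lower (median log2 1.23), led by *Cst3* (2.19), *Tmem119* (1.76) and *P2ry12* (1.46). Of 10 border macrophage genes, 5 were lower and 0 higher (median −1.76), among them *Ms4a7* (−3.42), *Dab2* (−1.65) and *Mrc1* (−1.39), where 24.3% of all genes were higher and 25% lower. In MIA offspring the counts over this interval were 11 of 12 homeostatic genes higher and 5 of 10 border macrophage genes lower, with 8 family members and partners higher and 3 lower, 7 other factors higher and 8 lower, and *Myb* (−2.61) the 1 progenitor factor called, where 18.2% of all genes were higher and 19% lower. From E13.5 to E15.5 in saline offspring, 10 of 12 homeostatic genes were higher, 5 family members and partners were higher (*Irf7* 1.93 and *Mef2a* 0.59 among them) and 2 lower (*Runx3* −2.01 and *Cbfb* −0.67), and 3 other factors were higher and 1 lower, where 13.2% of all genes were higher and 10.4% lower. In MIA against saline, none of these lists had a gene past the threshold at any stage by edgeR.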

How the data were processed

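The authors prepared 10x Genomics 3′ libraries and deposited filtered matrices of UMI counts per cell and gene, made with Cell Ranger 3.1.0 against mm10 per the file headers and the labels. No normalised values were used. Barcodes with fewer than 500 detected genes, or with more than 20% of UMIs from mitochondrial genes, were dropped (Python 3.11.15, scanpy 1.11.5). Doublets were called at a rate of 0.8% per 1000 cells (2586 removed), because the automatic threshold marked almost none. Leiden clusters (resolution 1) were built without the 9 genes and without the other transcription factors, and 4201 cells in clusters of other types were removed. Counts were summed per library and tested with edgeR 4.0.16 in R 4.3.3 (quasi-likelihood, TMM, low counts filtered by group, Benjamini-Hochberg over all genes, 0.05). MIA was tested within each stage, and stages and interactions in 1 fit of all 18 libraries. The script was tested on simulated data. DESeq2 1.42.0, other scalings, cell filters and the leaving out of each library were alternatives. Of the deposited matrices, 8 of nuclei were not used. Levels are means ± SD over libraries, and p-values measure the spread between libraries, and those of embryos are pools. Genes named from lists are the called ones with the largest changes, up to 3 a direction, and 1 of them is not reported here. The genes and lists were chosen with earlier results of these data known. Gene positions are from GENCODE M21 (GRCm38), promoters from RefSeq. Depth per library is given in the report and covers counting error only.

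Saline and MIA libraries of the same number deviated together within stages (r = 0.411, 0.227 and 0.483 at E13.5, and 0.635, 0.454 and 0.722 at E15.5, over 5951 genes), so the numbers were taken as pairs there, in an alternative fit with blocks. The main MIA tests used no pairs and no sequencing batch, which the labels do not give. Pairs 1 and 2 at E13.5 shared 67 and 33 cell barcodes and pair 3 at E15.5 shared 157, against at most 21 in the other embryonic pairs. The part of shared barcodes in these r was not tested. At P14 only 2 pairs exist (0.156 and 0.478), and across stages same-numbered libraries ran from −0.603 to 0.571 and were not taken as pairs.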

Additional observations from a re-analysis of the deposited data

How the results depend on the processing

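Over the alternatives that left out no library, 992 of 1055 values kept their direction and side of the threshold, 18 lost a call, 23 gained one and 22 turned in sign, none of them called. With 1 library left out, 1007 of 1128 did so, 36 lost a call, 10 gained one and 75 turned, none of them called. Counts of called genes among the 9 moved by over 1.5 times as follows. MIA against saline at P14 was 1 with DESeq2, which called 1 of 12931 genes there. E15.5 against E13.5 in saline was 1 without dividing clusters (*Spi1*) and 3 with libraries split by sex (*Sall1*, *Spi1* and *Mef2c*). E15.5 against E13.5 in MIA was 1 with all cells, 1 with library totals, 7 with the sex split and 0 with both groups alone in the fit. P14 against E15.5 in MIA was 7 with the sex split and 0 with both groups alone. Smaller moves were 3 with DESeq2 (E15.5 against E13.5, MIA, where it called 4159 of 14178 genes), 4 in 5 settings (P14 against E15.5, saline) and 3 to 5 (the same, MIA). The sex split counts 2 sums of 1 library as separate samples. Without 1 library, these counts ran from 0 to 3 (E15.5 against E13.5, saline), 0 to 3 (the same, MIA), 3 to 5 (P14 against E15.5, saline) and 0 to 6 (the same, MIA). Fits without P14 MIA 1 or P14 MIA 2 left 1 library in that group, so their spread came from the other groups. The share of all genes called was counted only for the main fits, DESeq2, the block and the fits without lower copies. The other counts here have no such share beside them. The cause of each move was not tested.

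The call of *Irf8* between E15.5 and P14 in saline was also lost with no low-count filter (0.28, edgeR adjusted p = 0.108), with both groups alone (0.27, 0.0821) and with the 3F and 3M libraries summed (0.29, 0.0796), and that of *Runx1* with all cells (−0.37, 0.115) and without dividing clusters (−0.40, 0.0589). With the replicate number as a block, 5 of the 9 genes were called in P14 against E15.5 in MIA (*Sall3* was added, 0.70, edgeR adjusted p = 0.0210), and the block changed no other call on the 9 genes. Between stages this block joins same-numbered libraries that were not taken as pairs.

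Values that turned sign were all small. For *Irf8*, MIA at E15.5, they were 0.00054 (DESeq2), 0.00064 (RLE), 0.0020 (all 18 libraries in 1 fit), 0.035 (no dividing clusters), 0.0071 (sex split) and 0.0048 (stricter cell filter). For the *Runx1* MIA response, P14 against E15.5, they were −0.000061 (DESeq2), −0.00024 (RLE), −0.0097 (no dividing clusters), −0.0013 (library totals) and −0.00062 (sex split). With all cells, they were −0.0070 (*Spi1*, MIA at P14), −0.0084 (*Sall1*, MIA at E15.5), −0.040 (*Runx1*, MIA at E15.5), −0.0100 (*Irf8* MIA response, E15.5 against E13.5) and 0.026 (*Spi1*, P14 against E15.5 in MIA). With library totals *Spi1* stood at −0.024 (MIA at P14), 0.069 and 0.034 (P14 against E15.5 in MIA and saline). Without macrophage clusters, *Sall1* stood at 0.026 and *Bhlhe40* at −0.12 (MIA at E13.5), and *Bhlhe40* at 0.035 (E15.5 against E13.5 in MIA).

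With 1 library left out, the values that turned sign ran as follows. MIA at E13.5: *Bhlhe40* −0.31 to 0.45, *Bhlhe41* −0.20 to 0.017, *Maf* −0.21 to 0.30, *Mef2c* −0.11 to 0.028, *Sall1* −0.15 to 0.072 and *Spi1* −0.031 to 0.11. MIA at E15.5: *Irf8* −0.11 to 0.10, *Maf* −0.11 to 0.36, *Mef2c* −0.017 to 0.23, *Runx1* −0.16 to 0.23, *Sall1* −0.26 to 0.28, *Sall3* −0.16 to 0.33 and *Spi1* −0.17 to 0.077. MIA at P14: *Mef2c* −0.065 to 0.0048, *Runx1* −0.10 to 0.18, *Sall1* −0.063 to 0.039 and *Spi1* −0.061 to 0.058. MIA response, E15.5 against E13.5: *Bhlhe40* −0.19 to 1.44, *Irf8* −0.044 to 0.16, *Maf* −0.16 to 0.32, *Runx1* −0.082 to 0.28, *Sall1* −0.22 to 0.30, *Sall3* −0.044 to 0.44 and *Spi1* −0.21 to 0.044. MIA response, P14 against E15.5: *Irf8* −0.19 to 0.011, *Maf* −0.45 to 0.018, *Runx1* −0.18 to 0.19, *Sall1* −0.29 to 0.24, *Sall3* −0.43 to 0.054 and *Spi1* −0.075 to 0.17. Stage: *Bhlhe40* −1.20 to 0.42 (E15.5 against E13.5 in MIA), *Runx1* −0.050 to 0.31 (the same, saline), *Maf* −0.14 to 0.22 and *Spi1* −0.27 to 0.010 (P14 against E15.5 in MIA).

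Without thinning, shares of cells with a UMI at E13.5, E15.5 and P14 were 57.5, 66.6 and 79.6% (*Sall1*), 32.7, 32.3 and 36.3% (*Sall3*), 85.5, 95.1 and 98.1% (*Mef2c*), 77.1, 81.2 and 82.5% (*Irf8*) and 83.1, 90.7 and 88.2% (*Spi1*). Without copies of shared barcodes, P14 dividing cells had 1055 CPM of *Mef2c*, 248 of *Sall1* and 69.2 of *Sall3*, against 820, 169 and 44.5. Depth limited *Bhlhe40* (2 to 61 UMIs a library).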

Other observations

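Between E13.5 and E15.5 in MIA offspring, 10 of 12 homeostatic genes were higher and 0 lower (median log2 0.96), by the same edgeR test as the stage comparisons, where 13.9% of all genes were higher and 13.6% lower and the median of all genes was 0.034. Of 17 family members and partners of the 9 factors, 5 were higher, among them *Sall2* (0.78) and *Mef2a* (0.78), and 2 were lower, *Runx3* (−2.12) and *Cbfb* (−0.76), which encodes the partner subunit of the RUNX proteins. Of 30 other macrophage transcription factors, 7 were higher, among them *Id2* (0.87), *Mitf* (0.69) and *Cebpa* (0.57), and *Ets2* was lower (−0.83). Of 6 blood progenitor factors, *Lyl1* (0.70) and *Lmo2* (0.69) were higher and *Myb* was lower (−1.43). Of 10 border macrophage genes, *Cbr2* was higher (2.38) and *Dab2* lower (−1.19), with a median of −1.15. The share of kept cells in dividing clusters and in macrophage-like clusters also differed between these stages, and its part in these values was not tested.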
